A study of Mus musculus with 4 samples.

Results

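A small set of T cells from mouse sarcomas held transcripts of the Ly49 receptor family but none of Fcer1g. Its cells were chosen by UMI counts (unique molecular identifiers, 1 for each captured transcript end). A barcode belonged to the set if it had at least 200 genes, at most 20000 UMIs, at most 10% mitochondrial UMIs, at least 1 UMI of Cd3e, at least 2 UMIs of Klra1, Klra6 and Klra7 together, none of Fcer1g, fewer than 5 of Gzmb and fewer than 2 of Ifng. These limits selected 715 of the 21342 Cd3e-positive cells. They are called Fcer1g-negative Ly49+ cells here. The levels of these 7 genes were therefore fixed by the choice and are given as a description only.

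The cells came from sarcomas induced by 3-methylcholanthrene in C57BL/6J male mice, 2 libraries from Csf3r+/+ and 2 from Csf3r-/- animals, given as biological replicates. Csf3r encodes the G-CSF receptor, and mice without it have few neutrophils. It had no UMI in the set in any library, and 7 UMIs in all other Cd3e-positive cells (CPM of 0.104, 0.136, 0.144 and 0.0633 in the 4 libraries), too few to check the genotype labels. Unconventional αβ T cells (UTCαβ) had been sorted as CD45+, CD11b-, TCRβ+, TCRγδ-, CD4- and CD8-, and their transcript 3′ ends were counted in droplets. The libraries of a genotype were told apart by the number at the end of a barcode, which the labels tie to no animal, and are called 1 and 2 by that number. The set held 56 and 436 cells in Csf3r+/+ libraries 1 and 2, and 87 and 136 cells in Csf3r-/- libraries 1 and 2, with 195683, 1739115, 321829 and 435956 UMIs. Library 2 of Csf3r+/+ thus gave most cells and library 1 the fewest. The median cell had 3341, 3471, 3337 and 2765.5 UMIs, against 3048, 2992, 2226.5 and 1972.5 in the 20627 other Cd3e-positive cells of the same libraries. Between 33 and 163 barcodes were shared by a pair of libraries, and none of them marked a cell of the set in both.

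Ly49 receptors are lectin-like receptors of the Klra gene cluster by which mouse NK cells and some T cells read MHC class I. The inhibitory members carry a cytoplasmic ITIM that recruits phosphatases such as SHP-1, whereas the activating members lack it and signal through the adaptor DAP12, encoded by Tyrobp. CD94, encoded by Klrd1, pairs with NKG2 proteins to read a non-classical MHC class I molecule. Fcer1g encodes the Fc receptor γ chain, an ITAM adaptor shared by NK cells, myeloid cells and some innate-like T cells.

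The rule was met mainly through Klra7 (Ly49G; ENSMUSG00000067599, chromosome 6, 130218605 to 130233322, minus strand, GRCm38). A UMI of Klra7 was found in 592 of the 715 cells (82.8%), of Klra1 (Ly49A; ENSMUSG00000079853, chromosome 6, 130363917 to 130386874, minus strand) in 396 (55.4%) and of Klra6 (Ly49F; ENSMUSG00000061769, chromosome 6, 130013033 to 130026954, minus strand) in 199 (27.8%). Transcripts of 1 of these genes were found in 324 cells, of 2 in 310 and of all 3 in 81. Klra7 stood alone in 225 cells, Klra1 in 86 and Klra6 in 13, and the median cell had 4 Ly49 UMIs. In CPM (UMIs per 1000000 UMIs, summed over the cells of the set in a library, with no division by transcript length since only 3′ ends were counted), Klra7 was at 879 and 767 CPM in Csf3r+/+ and at 718 and 679 CPM in Csf3r-/- libraries 1 and 2. Klra1 was at 695, 391, 438 and 443 CPM and Klra6 at 97.1, 125, 143 and 110.1 CPM in the same order, so that the order Klra7, Klra1, Klra6 was the same in every library. The last 300 bases of the Klra1 transcript shared no stretch of 31 bases with another Klra gene, and those of Klra6 and Klra7 shared 5.19% and 4.39% of theirs. The values of both are less certain to that extent.

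Promoters of Klra genes are shown because the products of Tcf7 and Lef1 bind DNA at sites that hold the letters CTTTGA. Both genes passed the test against the other cells, but the call of Tcf7 was lost in 2 of 15 alternatives, Lef1 was not higher in Csf3r+/+ library 2, and neither passed against Fcer1g-positive Ly49+ cells. In RefSeq sequence (GRCm38.p6, 250 bases before to 50 after the gene start, both strands searched), 16% of 32851 promoters held these letters. Among 11 Klra genes they were in Klra6 and Klra7 only. Both stretches lie before the gene start, on the strand of the gene, which is the minus strand of chromosome 6. The letters stand in capitals.
Klra6, chr6:130027031-130027084: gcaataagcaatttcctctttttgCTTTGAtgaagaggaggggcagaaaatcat
Klra7, chr6:130233369-130233422: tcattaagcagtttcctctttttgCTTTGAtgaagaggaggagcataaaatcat
The match begins 106 bases before the start of Klra6 and 76 bases before this start of Klra7. Over 54 bases both stretches were the same at 49. A second RefSeq start of Klra7 holds the letters on the opposite strand, 246 bases before it. The window of Klra1 did not hold these letters. A match describes the sequence, and binding was not measured.

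Other Klra genes were low beside Klra7. Klra9 was at 164 and 221 CPM in Csf3r+/+ and at 93.2 and 232 CPM in Csf3r-/- libraries 1 and 2, and Klra3 at 35.8, 38.5, 62.1 and 59.6 CPM. Both share much of their 3′ sequence with other Klra genes (70.2% and 61.1% of the 31-base stretches), so that their values are uncertain. Klra5 had 20.4, 12.1, 18.6 and 9.18 CPM, Klra4 15.3, 5.75, 3.11 and 0 CPM, Klra8 0, 9.78, 0 and 9.18 CPM and Klra10 0, 2.88, 0 and 2.29 CPM. Klra2, a member of the family known from myeloid cells, had 0, 0.575, 0 and 2.29 CPM, and Klra17 had no UMI. Klrd1, the marker that was not part of the rule, was at 1109 and 723 CPM in Csf3r+/+ and at 696 and 601 CPM in Csf3r-/- libraries 1 and 2, near the level of Klra7.

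Transcripts of CD3 were abundant, so that the data did not go against the label of a T cell set. The rule itself required Cd3e, and the matrices do not list the T cell receptor genes Trac, Trbc1 and Trbc2. Markers of NK cells were seen as well, with Xcl1 giving most of their sum, while those of macrophages, neutrophils, fibroblasts, mast cells and B cells were low. Cd3d and Cd3g, subunits of the CD3 complex, had 1318, 1105, 1336 and 1142 CPM and 1789, 1244, 1902 and 1757 CPM. Of the markers of NK cells, Ncr1 (NKp46) had 5.11, 6.90, 0 and 0 CPM, 13 UMIs in all, and Klrb1c (NK1.1) had 118, 136, 83.9 and 87.2 CPM. The 8 NK cell markers summed to 1794, 1783, 1296 and 1193 CPM, against 2360.0, 2732, 742 and 757 CPM in the other cells, but this sum holds Fcer1g, which the rule set to 0. Without Fcer1g the other cells had 1760 CPM and 2191 CPM in Csf3r+/+ and 511 and 532 CPM in Csf3r-/- libraries. Xcl1 was the most abundant, and without both genes the remaining 6 markers summed to 649, 585, 454 and 475 CPM, against 703, 699.9, 257 and 241 CPM in the other cells, that is more than in the other cells in both Csf3r-/- libraries and less in both Csf3r+/+ libraries. The 10 macrophage and monocyte markers summed to 5.11, 43.7, 49.7 and 179 CPM, against 30.4, 342, 133 and 1583 CPM in the other cells. Apoe was the most abundant of these, Csf1r and Mrc1 had no UMI, and 110 of the 715 cells held a UMI of at least 1 of the list, as did 3894 of the 20627 other cells. Of 8 neutrophil markers 7 had no UMI, including Csf3r, S100a8 and S100a9, and Ly6g had 0, 2.30, 0 and 0 CPM. Of 8 fibroblast and sarcoma markers only Sparc was seen, in 1 library. Of 4 mast cell and basophil markers, Kit was the most abundant, with 0, 2.30, 3.11 and 0 CPM. The 4 B cell markers listed summed to 5.11, 17.3, 71.5 and 9.18 CPM against 14.3, 13.3, 70.9 and 18.1 CPM, led by Cd79b and highest in Csf3r-/- library 1 in both sets of cells. Cd8a and Cd8b1 had 16 and 34 UMIs, and Cd4 and Foxp3 had 3 UMIs each. Of the 6 γδ T cell markers the matrices list only Sox13, at 0, 0, 3.11 and 2.29 CPM.

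The limits cut through continuous distributions. Exactly 2 Ly49 UMIs were counted in 206 of the 715 cells, while 617 Cd3e-positive cells with a single Ly49 UMI would otherwise have been included. A single UMI of Fcer1g kept out 563 cells, and the limits on Gzmb or Ifng kept out 392 more. Which cells were chosen also depended on how deeply a cell was read. When each cell was thinned to 1500 UMIs and the rule applied again, 577 cells met it, of which 262 were among the 715. Cells with at least 2 Ly49 UMIs and any Fcer1g numbered 4081, and after thinning a mean of 78.8% of them (71.4 to 88.5% over the libraries) still had a UMI of Fcer1g. The absence of a UMI thus does not show that a cell lacked Fcer1g. These Fcer1g-positive Ly49+ cells meet the same Ly49 limit and serve as a second comparison, with median depths of 3758.5, 3997, 3403 and 3231 UMIs. Of the 11050 barcodes without a UMI of Cd3e, 447 met the other terms of the rule.

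The share of these cells was compared between genotypes. Among the Cd3e-positive cells, the share was 1.97% (exact binomial 95% interval 1.49 to 2.55) in Csf3r+/+ library 1 and 6.75% (6.15 to 7.39) in library 2. In Csf3r-/- it was 1.67% (1.34 to 2.05) in library 1 and 1.99% (1.67 to 2.35) in library 2. Csf3r+/+ library 2 stood above the other 3 libraries, whose intervals overlapped. The mean was 4.36 ± 3.38% (SD, n = 2) against 1.83 ± 0.229% (n = 2), a difference of -2.53 percentage points. This was smaller in size than the SD of the Csf3r+/+ libraries. A two-sided exact permutation test gave p = 0.667, where 2 against 2 libraries cannot give less than 0.33. Without Csf3r+/+ library 2 the difference was -0.139 points. All Ly49+ cells together, with or without Fcer1g, were 30.2% and 47.7% of cells in Csf3r+/+ and 11.7% and 9.32% in Csf3r-/- sarcomas. Within them, the Fcer1g-negative cells below the limits of Gzmb and Ifng were 6.51% (4.96 to 8.37) and 14.2% (12.9 to 15.4) in Csf3r+/+, and 14.2% (11.6 to 17.3) and 21.4% (18.3 to 24.8) in Csf3r-/- sarcomas. On this base the difference was 7.48 points in the other direction (exact permutation p = 0.33, the smallest that 2 against 2 libraries can give). Intervals cover counting error only.

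**Figure D1:**
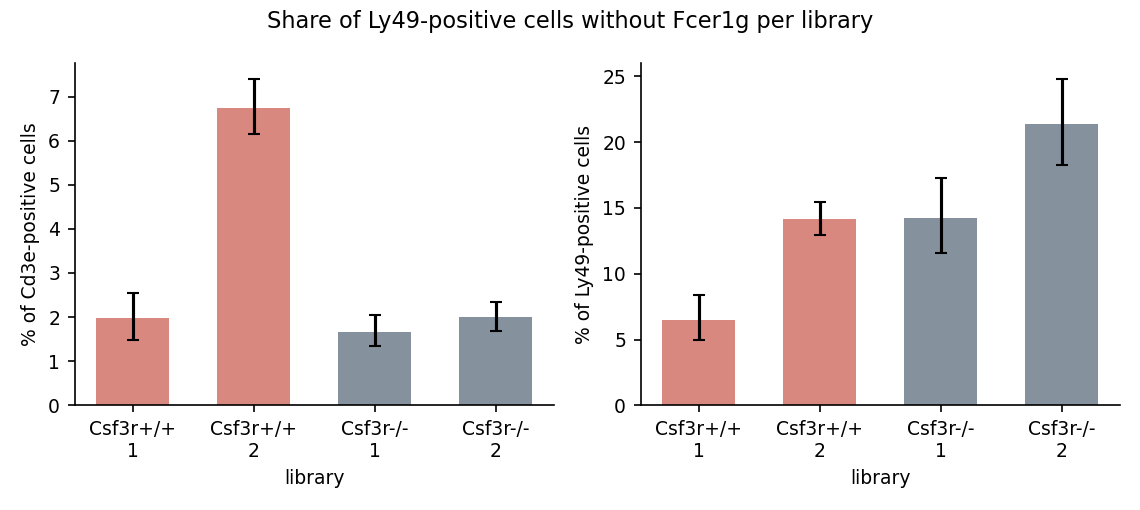
Fcer1g-negative Ly49+ cells per library, as a percentage of the Cd3e-positive cells (left) and of the Ly49+ cells (right), with exact 95% binomial intervals. On the left, Csf3r+/+ library 2 (6.75%) stands apart from the other 3 libraries (1.67 to 1.99%), and on the right the shares run from 6.51% to 21.4%.

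Fcer1g-negative Ly49+ cells were first compared with the other Cd3e-positive cells of the same library, which include the Fcer1g-positive Ly49+ cells. They had higher levels of the lymph node homing gene Ccr7, of the transcription factor genes Id3 and Lef1, of Klrd1 and of the granule genes Gzmk and Nkg7, and lower levels of Il17a, Maf, Rora and Zbtb16, genes of T cells that make IL-17. Of these genes, only Ccr7 and Gzmk also passed against the Fcer1g-positive Ly49+ cells alone. The others are thus not shown to be particular to the Fcer1g-negative cells. Summed UMI counts were tested with edgeR's quasi-likelihood test, with the library as a block and Benjamini-Hochberg adjustment over all genes. Apart from the genes of the rule and other Klra genes, 10762 genes were tested. Of these, 172 (1.6%) were higher and 340 (3.16%) lower in the Fcer1g-negative Ly49+ cells at an adjusted p under 0.05. The median log2 fold change over all genes was -0.06. A gene that was rare in the set could pass the filter on low counts through the other cells alone, which favours the counts of lower genes in the lists. The limits on Fcer1g, Gzmb and Ifng were not applied to the other cells, so that genes whose transcripts occur in the same cells as those 3 are shifted by the choice itself. The share of Ly49+ cells among the other cells also differed between genotypes.

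A homing gene led the list. Ccr7, the receptor that guides lymphocytes to lymph nodes, was at 20.4 and 283 CPM in Csf3r+/+ and at 277 and 184 CPM in Csf3r-/- libraries 1 and 2. In the other cells it was at 7.99, 123, 30.6 and 34.2 CPM, lower in every library, and the log2 fold change was 2.16 ± 0.17, adjusted p = 4.14e-20. Csf3r+/+ library 1 had the lowest level in both sets of cells. Of the 19 genes of homing and residency tested, 4 were higher and 5 lower, with a median log2 fold change of 0.13. Ly6c2 and Cxcr3 were also among the higher genes, with log2 fold changes of 0.96 and 0.71. Among the lower genes were Ccr2, a receptor for monocyte chemoattractants, at 46, 26.5, 103 and 131 CPM against 218, 70.7, 466 and 475 CPM (log2 fold change -1.81 ± 0.15, adjusted p = 4.3e-19), and Itgae (CD103), an integrin that holds T cells in epithelia (log2 fold change -1.74 ± 0.28, adjusted p = 1.02e-06). Cxcr6 and Itgb7 were lower too (-1.33 and -0.75), and Cd44, a marker of antigen-experienced T cells, was lower by a smaller margin (-0.58). The calls of Cxcr3 and Cd44 were lost in 2 and 4 of 15 alternatives, both of them with DESeq2 and without Csf3r-/- library 1.

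Of 12 transcription factors of quiescent and precursor T cells, 5 were higher and 1 lower, with a median log2 fold change of 0.58. Id3, an inhibitor of E proteins, had 204, 197, 158 and 39 CPM against 88.6, 119, 22.1 and 18.3 CPM (log2 fold change 1.40 ± 0.17, adjusted p = 1.18e-10) and was lowest in Csf3r-/- library 2 in both sets. Lef1 and Tcf7, the factors of the Wnt pathway that mark naive and memory T cells, had 112, 114, 96.3 and 96.3 CPM against 53.4, 120.0, 34.5 and 34.5 CPM and 138, 212, 139.8 and 110.1 CPM against 91.6, 150.5, 98 and 68.1 CPM. Their log2 fold changes were 0.83 ± 0.17, adjusted p = 0.000218 and 0.60 ± 0.14, adjusted p = 0.00104. In Csf3r+/+ library 2 Lef1 was not higher than in the other cells. Myb and Foxp1 were also higher (1.37 and 0.57), and Bcl11b, a factor of T cell commitment, was lower (-0.65). The call of Tcf7 was lost when every cell was thinned to 1500 UMIs and when Gzmb and Ifng were not limited (adjusted p up to 0.236 over the alternatives), whereas Lef1 and Id3 kept theirs under all 15 alternatives. The calls of Myb, Foxp1 and Bcl11b were lost in 5 of 14, 6 of 15 and 6 of 15 alternatives, each of them after thinning and without Csf3r-/- library 2.

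Among 14 factors of type 1 and innate-like lymphocytes, 2 were higher and 4 lower, with a median of -0.06. Eomes, a T-box factor of NK and memory CD8 T cells, had 25.6, 68.4, 65.3 and 36.7 CPM against 15.1, 35, 10.5 and 7.47 CPM (log2 fold change 1.57 ± 0.23, adjusted p = 5.54e-08). Its relative Tbx21 (T-bet) had 30.7, 43.1, 62.1 and 29.8 CPM against 36.6, 54, 16.8 and 15.4 CPM and did not pass the test (log2 fold change 0.39 ± 0.23, adjusted p = 0.503). Ikzf2 (Helios) was higher (0.68), and Ikzf3 (Aiolos), Zeb2, Id2 and Bhlhe40 were lower (-1.04, -0.78, -0.66 and -0.48). The calls of Zeb2 and Bhlhe40 were each lost in 8 of 15 alternatives, and that of Id2 in 1.

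Receptors that NK cells share with T cells were called in both directions. Of 14 genes tested, 6 were higher and 2 lower, with a median of -0.11. Klrd1 (CD94) was at 519.8, 685, 189 and 183 CPM in the other cells, below its level in the Ly49+ cells without Fcer1g in every library (log2 fold change 1.21 ± 0.13, adjusted p = 2.98e-12). Klre1, Cd160, Klrc2, Klrc1 (NKG2A) and Klrk1 (NKG2D) were also higher, with log2 fold changes of 1.19, 1.11, 1.0, 0.84 and 0.63. For Klrc1 the call was lost without Csf3r-/- library 2 and for Klrk1 with DESeq2. The 2 called as lower were Klrb1a and Ncr1 (-2.61 ± 0.45 and -2.16 ± 0.38), with 8 and 13 UMIs in the set. They could pass the filter on low counts through the other cells alone, so that their calls are not read. Against other cells held to the same limits of Fcer1g, Gzmb and Ifng, Ncr1 was at 2.26 and no longer passed (adjusted p = 0.167), and after thinning it was at 0.36, so that its direction depended on these choices. Klrb1a likewise was at 0.19 against other cells without Ly49 UMIs and at 0.76 after thinning, and passed in neither (adjusted p = 0.964 and 0.541).

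The adaptors below these receptors showed the same dependence. Tyrobp (DAP12) had 40.9, 39.1, 31.1 and 57.3 CPM against 181, 117, 80.8 and 104 CPM, lower in every library (log2 fold change -1.41 ± 0.17, adjusted p = 9.91e-11). Against other cells without Fcer1g and below the limits of Gzmb and Ifng it was higher, at 1.66 (adjusted p = 0.000317), and after thinning it was at 0.39. Of 10 ITAM adaptors and kinases tested, Tyrobp and Lat, a scaffold of the T cell receptor, were lower (-0.75 for Lat), and the median was -0.07. Hcst (DAP10), Zap70 and Lck did not pass (-0.04 ± 0.11, adjusted p = 0.964, -0.10 ± 0.13, adjusted p = 0.875 and 0.14 ± 0.11, adjusted p = 0.708). Of 8 ITIM phosphatases and SAP adaptors, Sh2d1a (SAP), Ptpn6 (SHP-1) and Sh2d2a were higher (0.97, 0.57 and 0.45), none was lower, and the median was 0.05. The calls of Ptpn6 and Sh2d2a were lost in 3 and 5 of 15 alternatives.

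Of 14 granule and killing genes outside the rule, 5 were higher and 1 lower, with a median of 0.48. Gzmk, a granzyme of memory-type T cells, was at 76.7 and 9.78 CPM in Csf3r+/+ and at 37.3 and 43.6 CPM in Csf3r-/- libraries 1 and 2, with 63 UMIs in all. The other cells had 39, 5.13, 5.85 and 5.88 CPM, lower in every library (log2 fold change 1.77 ± 0.28, adjusted p = 7.85e-07). Nkg7, Ctsw and Fasl were higher by less (0.91, 0.75 and 0.65), and Cst7 was also higher (0.57). The call of Fasl was lost in 5 of 15 alternatives, including DESeq2 and the removal of either Csf3r-/- library, that of Ctsw with DESeq2 and that of Cst7 without Csf3r-/- library 1. Gzmc was lower (-1.70), which turned to 1.0 (adjusted p = 0.342) against other cells under the same limits. Prf1 (perforin) had 10.2, 13.8, 12.4 and 6.88 CPM and did not pass (0.61 ± 0.36, adjusted p = 0.515). Gzmd, Gzme and Gzmf had no UMI. For description, Gzmb, which the rule capped, had 296, 157, 177 and 248 CPM against 1047, 962, 287 and 359.8 CPM, and Ifng 30.7, 35.7, 46.6 and 39 CPM against 191, 313, 49.4 and 77.6 CPM. Of 14 cytokines and chemokines, 3 were higher, namely Ccl5, Ccl4 and Xcl1 (1.12, 1.05 and 0.73), and Il4 and Areg were lower (-2.50 and -1.19), with a median of -0.31. Ccl5 was the most abundant, at 6051, 6349.8, 6951 and 6551 CPM, and in Csf3r+/+ library 2 it was below the 7010.2 CPM of the other cells. In that library Xcl1 was also below its level in the other cells. The calls of Ccl5, Ccl4 and Xcl1 were all lost with DESeq2 (adjusted p = 0.202 for Ccl5), and those of Ccl4 and Xcl1 also without Csf3r-/- library 1. Those of Il4 and Areg were lost in 3 of 12 and 7 of 15 alternatives.

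Type 3 genes mark T cells that make IL-17. All 14 of the list were tested, of which 12 were lower and none higher, with a median of -1.80. Il22, which did not pass, had no UMI in the set and Il23r had 6, so that they could pass the filter through the other cells, and no more is read from this number than the values of the genes named. Maf, a transcription factor of T cells that make IL-17, had 10.2, 25.9, 71.5 and 68.8 CPM against 126, 53.8, 241 and 225 CPM (log2 fold change -1.57 ± 0.17, adjusted p = 6.29e-13). Rora and Zbtb16 (PLZF) were lower as well, with log2 fold changes of -1.44 and -1.61. Il17a had 0, 1.15, 43.5 and 282 CPM against 10.8, 8.40, 231 and 1371 CPM (log2 fold change -2.28 ± 0.19, adjusted p = 4.3e-19), and Il23r, a receptor that sustains these cells, had 0, 0.575, 12.4 and 2.29 CPM against 25.2, 2.86, 38.2 and 41.1 CPM (-2.66 ± 0.45, adjusted p = 4.16e-06), on 6 UMIs in the set. Both sets of cells had more Il17a in the Csf3r-/- libraries. The call held for Maf, Rora, Zbtb16 and Il17a under all 15 alternatives. That of Il23r is not read, since this gene could pass the filter through the other cells alone. The list was drawn up with earlier results of these data known and is no independent evidence of its direction.

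Of 11 cytokine receptor genes, Il21r was higher (0.64) and 4 were lower, namely Il2ra, Il12rb1, Il7r and Il18r1 (-1.46, -1.07, -0.97 and -0.70), with a median of -0.16. Of 20 checkpoint and costimulatory receptors, Cd27 and Cd28 were higher (1.0 and 0.49) and Icos and Tnfrsf4 lower (-1.26 and -0.83), with a median of 0.06. The call of Cd28 was lost in 6 of 15 alternatives, and those of Il21r and Tnfrsf4 in 2 each. Among 15 genes of recent stimulation, Nr4a2 was higher (0.90) and Nr4a1, Dusp1 and Junb were lower (-0.61, -0.49 and -0.43), with a median of -0.30. The calls of Nr4a1 and Dusp1 were each lost in 5 of 15 alternatives and that of Junb in 2. Of 13 proliferation genes, Mcm5, Stmn1 and Mcm6 were higher (0.67, 0.64 and 0.51) and none was lower, with a median of 0.24, and Mki67 did not pass (0.11 ± 0.27, adjusted p = 0.96). The call of Mcm6 was lost in 10 of 15 alternatives, with a log2 fold change down to 0.06 and an adjusted p of up to 0.981, that of Mcm5 in 4 and that of Stmn1 in 2. Of the coreceptors, Cd8a was higher (2.00 ± 0.56, adjusted p = 0.0155), on 16 UMIs, although the sort had removed CD8+ cells, and this call was lost in 8 of 13 alternatives. Foxp3, the factor of regulatory T cells, had 3 UMIs, all in Csf3r+/+ library 2. In the other cells it had 1.66, 8.40, 2.02 and 9.87 CPM. It could pass the filter on low counts through the other cells alone, so that nothing is read from its call as lower. This call was lost in 5 of 14 alternatives, among them the removal of Csf3r+/+ library 2 or of Csf3r-/- library 2 and thinning (adjusted p up to 0.906). Cd40lg, a ligand of helper T cells, was lower (-1.59). Of the cell type marker lists, 3 of 7 NK cell genes were higher and 2 lower, 1 of 4 T cell genes was lower, 1 of 2 CD8 genes was higher, and 1 of 4 CD4 and regulatory T cell genes was higher and 2 were lower. No B cell gene of 4 passed, nor did the single genes tested of the γδ T cell, fibroblast and mast cell lists.

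Among genes with the same direction in every library and at least 20 CPM, the 10 largest positive changes included those of Ccr7, Gzmk, Eomes, Nsg2, Actn1, Id3, Plac8, Itm2a and Il6st. Nsg2, Actn1 (α-actinin), Plac8, Itm2a and Il6st (gp130, the shared chain of the IL-6 receptors) had log2 fold changes of 1.56, 1.44, 1.36, 1.32 and 1.23. After thinning the calls of Actn1 and Il6st were lost. That of Il6st was also lost without the limits on Gzmb and Ifng, and over the alternatives its log2 fold change went down to 0.41. Plac8 was the most abundant of these, at 1042, 472, 631 and 353 CPM against 490.2, 364, 146 and 100.2 CPM, and was higher in every library. The 10 lowest included C1qa, C1qc, Apoe, Lyz2, Lgmn and Spp1, genes known from macrophages, with log2 fold changes from -3.87 to -2.66. Of the 10 macrophage markers, all tested, 6 were lower, among them Csf1r with no UMI in the set, and nothing is read from this number, since such genes were let in by the other cells. In an alternative chosen after seeing the data, which left out every barcode with a UMI of these markers, 412 genes were called in place of 512, of which 384 were the same. Against other cells under the same limits, C1qa, C1qc, Apoe, Lyz2 and Spp1 no longer passed, and after thinning neither these 5 nor Lgmn passed. The remaining genes were Il23r, Selm (an ER selenoprotein), Prr29 and Ppp1r14c (an inhibitor of protein phosphatase 1), with log2 fold changes of -2.66, -2.88, -2.80 and -2.75. All of these met the level of 20 CPM in the other cells. Genes rare in the set could pass the filter on low counts through those cells alone. These changes are thus a description, and their calls are not read. The call of Selm was also lost after thinning (edgeR adjusted p = 0.0898).

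**Figure D2:**
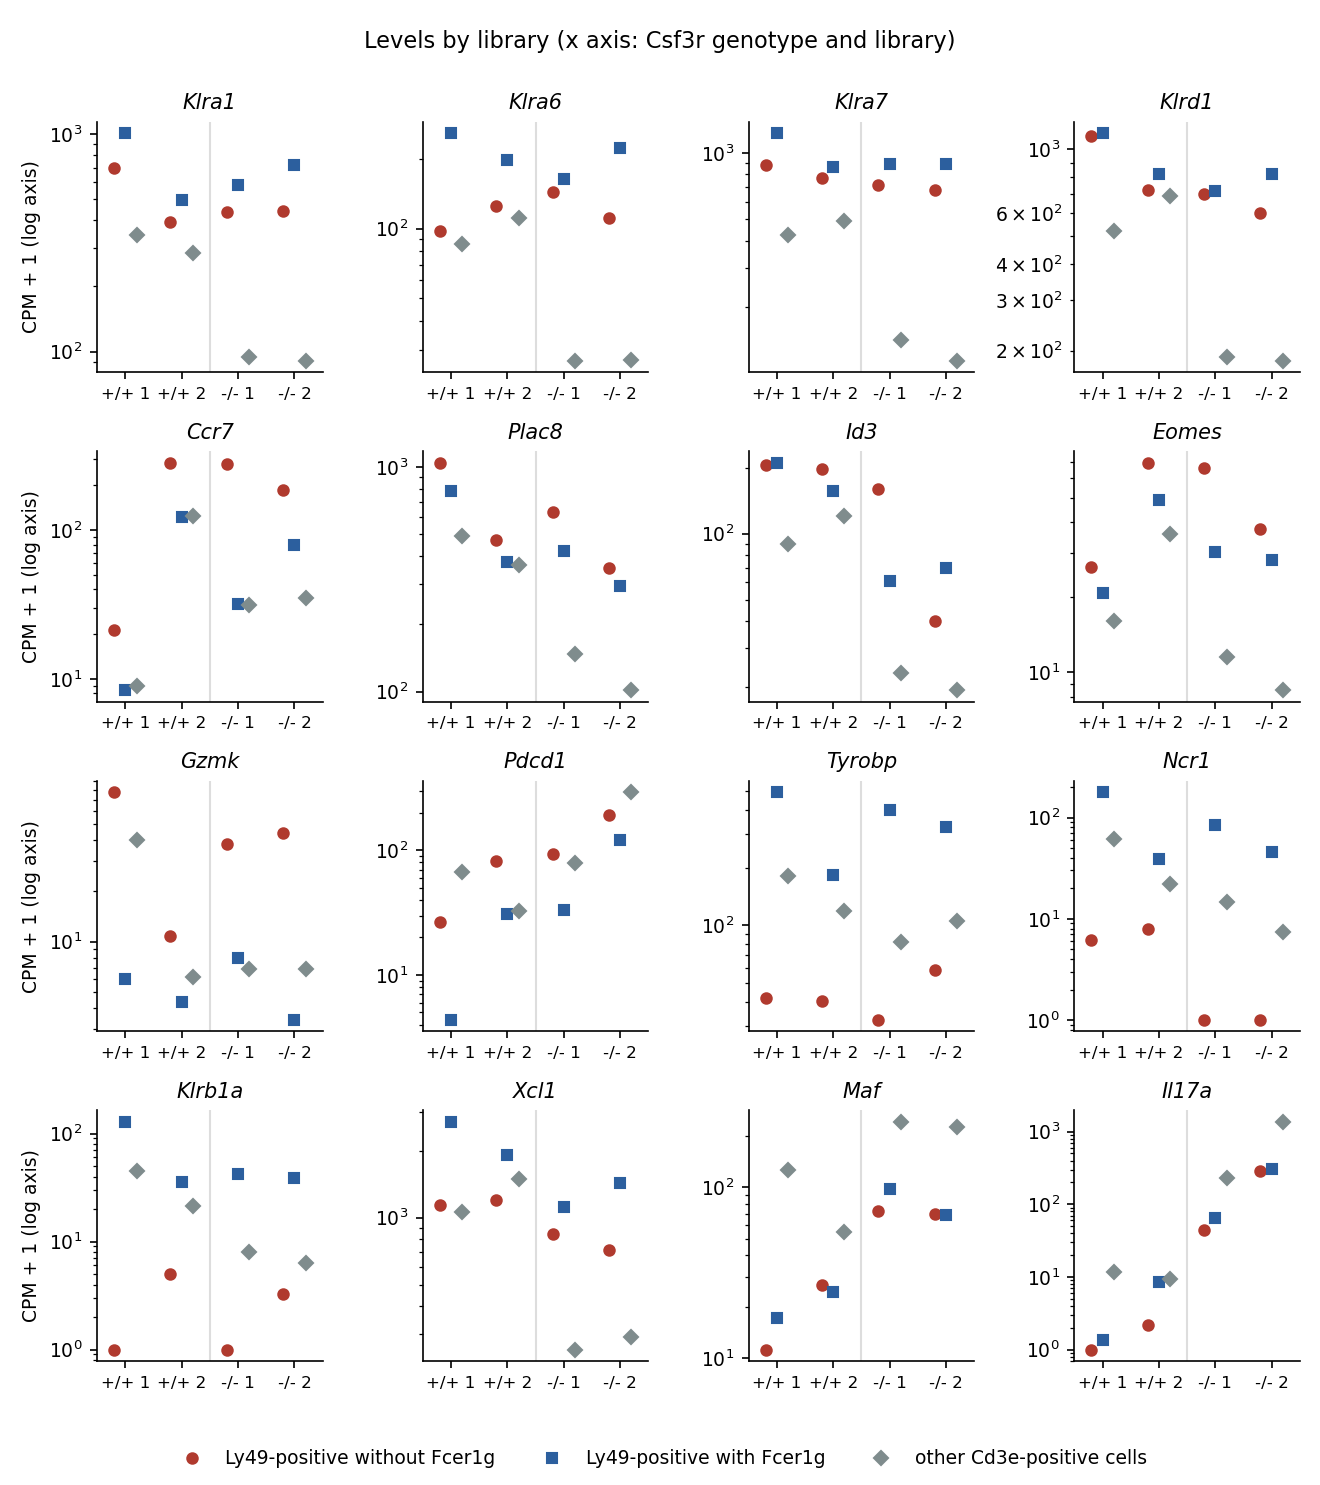
Levels of 16 genes in each library (CPM + 1, log axis) in Fcer1g-negative Ly49+ cells (circles), Fcer1g-positive Ly49+ cells (squares) and the other Cd3e-positive cells (diamonds), 1 value per library and set of cells. Circles lie above squares for Ccr7, Gzmk and Pdcd1 and below them for Tyrobp, Ncr1, Klrb1a and Xcl1 in every library, while circles and squares of Il17a lie higher in both Csf3r-/- libraries.

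The second comparison asked what sets these cells apart from Ly49+ cells that have Fcer1g. Ccr7, Gzmk and Pdcd1 were higher without Fcer1g, and Tyrobp, Klrb1c, Gzmc and Xcl1 were lower. Of 8688 genes tested, 31 (0.357%) were higher and 83 (0.955%) lower in the Fcer1g-negative cells (edgeR, adjusted p under 0.05, 4 libraries, library as a block), and the median log2 fold change over all genes was close to 0. Both comparisons use the same Fcer1g-negative cells, and the limits of Gzmb and Ifng were not set on the Fcer1g-positive ones. Genes rare without Fcer1g could pass the filter on low counts through the Fcer1g-positive cells alone, so that nothing is read from the numbers of lower genes in the lists. Of the NK cell markers 5 of 7 were lower, Ncr1 among them, and 1 higher.

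Ccr7 was at 7.37, 121, 31 and 78.4 CPM in the Fcer1g-positive cells, lower in every library (log2 fold change 1.52 ± 0.12, adjusted p = 8.11e-23). With DESeq2 the change of Ccr7 was 1.79 and did not pass (adjusted p = 0.0673), and it passed under the other 9 alternatives. Gzmk was at 5.02, 3.35, 6.99 and 2.41 CPM there (log2 fold change 2.69 ± 0.32, adjusted p = 3.49e-11), the largest positive change among named genes of at least 20 CPM. Pdcd1 (PD-1), an inhibitory receptor of stimulated T cells, had 25.6, 81.7, 93.2 and 190.4 CPM without and 3.35, 29.7, 32.5 and 121 CPM with Fcer1g (log2 fold change 1.22 ± 0.14, adjusted p = 1.48e-12), whereas against all other cells it did not pass (0.26 ± 0.17, adjusted p = 0.588). Cd8a and Cd8b1 had 2.34, 0.881, 0.499 and 0.603 CPM and 4.02, 3.35, 7.49 and 7.84 CPM with Fcer1g, and both were higher without it (2.70 ± 0.68, adjusted p = 0.0113 and 1.45 ± 0.37, adjusted p = 0.0164). These calls rest on few UMIs, and each was lost in 4 of 9 alternatives. Cd5 and Cd6, which dampen T cell receptor signals, were higher as well (0.60 ± 0.14, adjusted p = 0.00351 and 0.51 ± 0.13, adjusted p = 0.0122), as were Sh2d1a and Sh2d2a (0.55 and 0.31). Rgs10, Pvr (CD155) and Plac8 were higher by 0.61, 0.62 and 0.40, and Eomes by 0.59. The calls of Cd6, Eomes and Pvr were each lost in 7 of 10 alternatives, that of Sh2d2a in 6 and that of Cd5 in 4, all of them with DESeq2 and after thinning. The call of Sh2d1a was lost in 2 alternatives, and those of Plac8 and Rgs10 after thinning.

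Of 14 CD94, NKG2 and NK lectin genes, none was higher without Fcer1g and 7 were lower, with a median log2 fold change of -0.36. Klrb1a and Ncr1, with 8 and 13 UMIs in the set, are among those that the filter favours, so that their levels are a description and their calls are not read. Klrb1a had 0, 4.03, 0 and 2.29 CPM without and 128, 34.9, 40.9 and 37.4 CPM with Fcer1g (log2 fold change -3.84 ± 0.32). Ncr1 had 177, 37.6, 83.4 and 44.6 CPM with Fcer1g, above the level without it in every library (log2 fold change -3.49 ± 0.27). Without Csf3r+/+ library 2 and after thinning, Ncr1 was at -6.20 and -2.16, and Klrb1a at -5.63 and -1.62. The protein encoded by Ncr1 is known to signal through the Fc receptor γ chain. Cd244 (2B4), Klrb1f, Klrb1c, Cd160 and Klre1 were also lower (-1.51, -1.29, -1.14, -0.44 and -0.28). The call of Klre1 was lost in 5 of 10 alternatives and that of Klrb1f with DESeq2. Klrd1, Klrc1 and Klrc2 did not pass, with log2 fold changes of -0.18 ± 0.06, adjusted p = 0.196, -0.20 ± 0.09, adjusted p = 0.556 and 0.01 ± 0.10, adjusted p = 1.0.

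Tyrobp had 494, 182, 399 and 325 CPM with Fcer1g, above the level without it in every library (log2 fold change -2.65 ± 0.12, adjusted p = 1.91e-42). It was the only gene called of 10 ITAM adaptors and kinases. An alternative chosen after seeing the data left out every barcode with a macrophage marker UMI. The log2 fold changes were then -2.69 for Tyrobp and 1.51 for Ccr7, and both still passed. The number of genes called fell from 114 to 53. The macrophage markers summed to 45.9, 535, 184 and 946 CPM with Fcer1g, and the 6 of 10 that passed the filter on low counts were lower without it, a count that the filter favours, since these genes were low without Fcer1g. Fcer1g is itself expressed by macrophages. Sh2d1b1 (EAT-2), an adaptor of NK cells, was lower (-2.18 ± 0.54, adjusted p = 0.0102) in a call lost in 6 of 9 alternatives.

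Of 14 granule genes, Gzmk was higher, and Gzmc, Serpinb9 and Ctsw were lower. Gzmc had 40.9, 8.63, 12.4 and 27.5 CPM without and 431, 58.3, 44.4 and 271 CPM with Fcer1g (log2 fold change -3.03 ± 0.17, adjusted p = 1.13e-33). Serpinb9, an inhibitor of granzyme B, and Ctsw had log2 fold changes of -0.32 and -0.29, and their calls were lost in 6 and 1 of 10 alternatives. When the limits of Gzmb and Ifng were set on both groups, Gzmc and Gzmk still passed, with log2 fold changes of -2.10 and 2.50. Xcl1, a chemokine that attracts dendritic cells, was the only gene called of 10 cytokines and chemokines, at 1145, 1198, 842 and 718 CPM without and 2706, 1912, 1113 and 1434 CPM with Fcer1g (log2 fold change -0.80 ± 0.06, adjusted p = 5.27e-22). Cd7 and Tnfrsf9 (4-1BB) were lower (-0.89 and -0.43). Il2rb, Nr4a1, Birc5, Id2 and Bhlhe40 were lower too (-0.34, -0.36, -0.87, -0.30 and -0.36). Of these, the call of Tnfrsf9 was lost in 7 of 10 alternatives, that of Nr4a1 in 6, that of Bhlhe40 in 5, that of Id2 in 4, that of Il2rb in 2 and that of Birc5 in 3 of 9.

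No gene of the quiescence list (11 tested) and none of the type 3 list (12 tested) passed in this comparison, by edgeR's adjusted p. Lef1, Tcf7 and Id3 had log2 fold changes of 0.21 ± 0.11, adjusted p = 0.664, 0.14 ± 0.09, adjusted p = 0.782 and 0.32 ± 0.11, adjusted p = 0.186, and Maf of -0.05 ± 0.17, adjusted p = 0.99. A p that misses the threshold does not show that the levels were alike. The intervals were narrow for the abundant genes, such as Ccl5 (0.01 ± 0.05) and Nkg7 (-0.02 ± 0.05), and wider for Maf. For description, Klra1, Klra6 and Klra7 were at 1007, 498, 578 and 715 CPM, 257, 197, 163 and 222 CPM and 1230.2, 867, 889 and 894 CPM with Fcer1g, each above the level without it in every library.

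**Figure D3:**
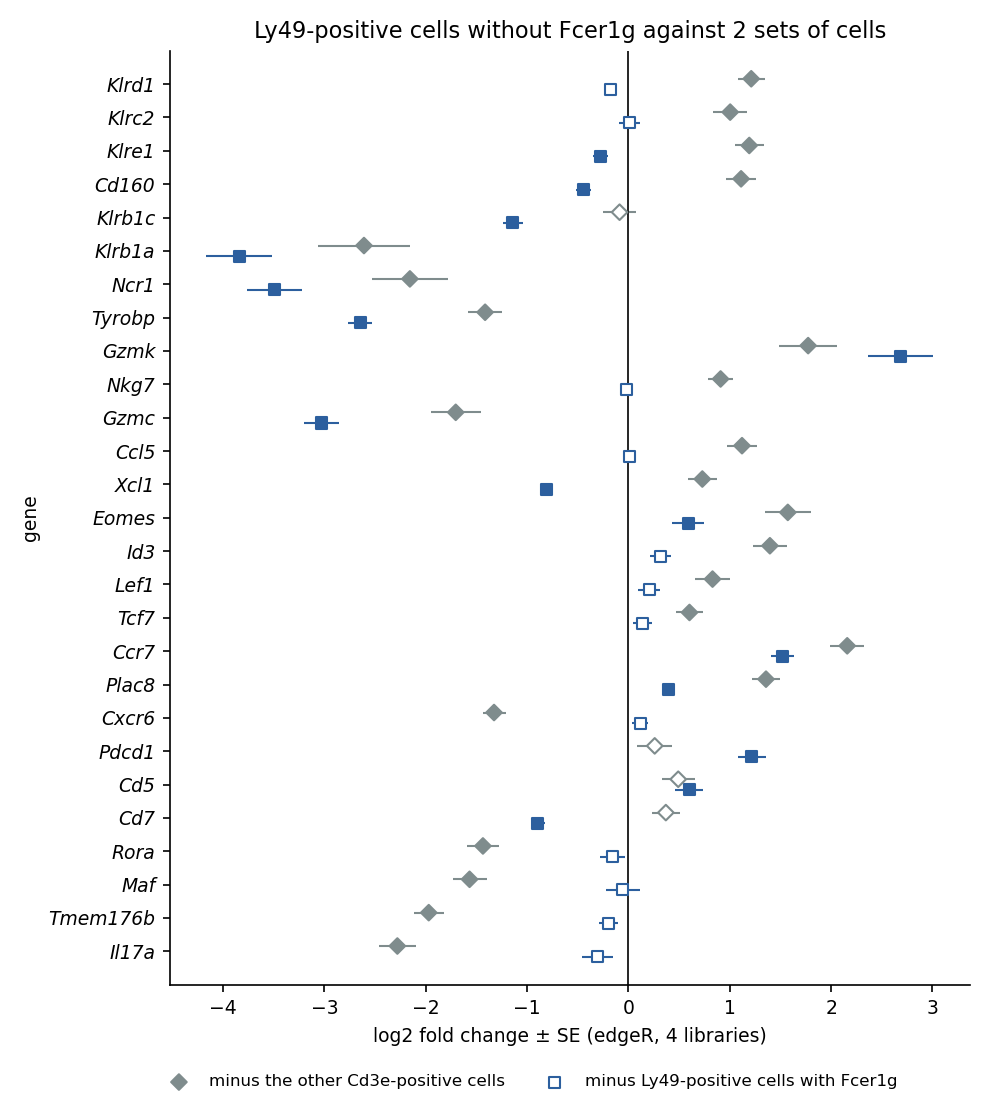
Log2 fold changes ± SE (edgeR, 4 libraries) of 27 genes in Fcer1g-negative Ly49+ cells against the other Cd3e-positive cells (diamonds) and against Fcer1g-positive Ly49+ cells (squares); filled symbols passed an adjusted p of 0.05. Ccr7 and Gzmk are filled on the right in both comparisons, and Ncr1, Klrb1a and Tyrobp on the left. The calls of Ncr1 and Klrb1a are not read, since both had few UMIs in the set. The type 3 genes at the bottom are filled only against the other cells.

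The question between genotypes was whether the loss of Csf3r goes with another state of the Fcer1g-negative Ly49+ cells. In Csf3r-/- sarcomas their levels of Il17a, Actn2 and Ltb4r1 were higher, and those of Scand1 and H2-Ke6 lower. Each of these genes had few UMIs in 1 genotype. It could pass the filter on low counts through the other genotype alone, so that the levels are a description and the calls add no support. With 2 libraries a genotype, 4118 genes were tested with edgeR, of which 18 (0.437%) were higher and 52 (1.26%) lower in Csf3r-/- at an adjusted p under 0.05, with a median log2 fold change of -0.02 over all genes. Without Csf3r-/- library 2 no gene passed (edgeR; 231 genes had an unadjusted p under 0.05), DESeq2 on all libraries called 45 genes, and after thinning of every cell 3 genes passed. With edgeR, the calls between genotypes thus depend on that library, whereas the fold changes of most named genes moved little without it.

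UMIs of Il17a numbered 0 and 2 in Csf3r+/+, and 14 and 123 in Csf3r-/- sarcomas, that is 0, 1.15, 43.5 and 282 CPM. The pooled rate was 175-fold higher in Csf3r-/- (exact 95% counting interval 47.5 to 1459). Such an interval covers counting error only, without the variation between cells or libraries. The gene was also named for this difference, so that the ratio is a description. The edgeR call of Il17a on all libraries is not read, since this gene passed the filter on low counts only through the Csf3r-/- libraries. Csf3r-/- library 2 gave 123 of the 137 UMIs in Csf3r-/-. Without that library the ratio was 42.1 (9.67 to 382), and the log2 fold change of edgeR was 5.09 in place of 7.06. In the other cells Il17a was at 10.8, 8.40, 231 and 1371 CPM, again higher in both Csf3r-/- libraries, and the difference between both sets of cells did not pass a test of its change between genotypes (adjusted p = 0.957). Whether RNA from other cells in the same droplets contributes to the Il17a UMIs was not tested. Actn2, Ltb4r1 (a leukotriene B4 receptor), Blk (a Src-family kinase) and Ckb (a creatine kinase) completed the 5 largest increases. Actn2 had 5.11, 5.75, 124 and 117 CPM (log2 fold change 4.29 ± 0.37, adjusted p = 0.00435), and Ltb4r1 had 5.11, 5.75, 106 and 110.1 CPM (4.13 ± 0.39, adjusted p = 0.00436). Blk and Ckb had 5.11, 2.88, 46.6 and 75.7 CPM and 10.2, 6.90, 83.9 and 75.7 CPM (4.16 ± 0.57, adjusted p = 0.0133 and 3.33 ± 0.41, adjusted p = 0.0115). Levels that do not overlap between genotypes were a condition for naming these genes. Without Csf3r-/- library 2 the log2 fold changes were 4.29 for Actn2, 4.06 for Ltb4r1, 3.67 for Blk and 3.34 for Ckb, and none passed (adjusted p from 0.155 to 0.789). Of the 14 type 3 genes, 7 passed the filter on low counts, Il17a and Blk only through the Csf3r-/- libraries, where they were high, so that nothing is read from the number of members called. Beside Il17a and Blk, those called were Tmem176a and Tmem176b, higher in Csf3r-/- (2.48 ± 0.25, adjusted p = 0.00436 and 2.15 ± 0.28, adjusted p = 0.0133). Of the homing list Ccr2 was higher (1.87), in a call lost in 4 of 10 alternatives. In the other cells of Csf3r+/+ library 1, Actn2, Ltb4r1, Blk and Ckb were at 266, 262, 89.8 and 289.7 CPM, above the 23.4, 16.6, 7.04 and 43.3 CPM of Csf3r+/+ library 2, while both libraries were low in the Fcer1g-negative Ly49+ cells.

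The 5 largest decreases were Scand1, H2-Ke6, Yipf4, Rala and Eif3f. Scand1 was at 174 and 168 CPM in Csf3r+/+ and at 6.21 and 9.18 CPM in Csf3r-/- libraries 1 and 2 (log2 fold change -4.44 ± 0.37, adjusted p = 0.00435), and in the other cells 153, 179, 11.1 and 8.73 CPM. H2-Ke6, an enzyme gene of the MHC region, had 97.1, 109, 9.32 and 9.18 CPM (-3.53 ± 0.40, adjusted p = 0.00763) and 72.4, 87.8, 17 and 11.4 CPM in the other cells. Yipf4, a Golgi membrane protein, and Rala, a small GTPase, had 56.2, 96.6, 15.5 and 6.88 CPM and 51.1, 56.9, 9.32 and 9.18 CPM (-3.02 ± 0.51, adjusted p = 0.0275 and -2.61 ± 0.46, adjusted p = 0.0331). Eif3f, a translation initiation factor, had 312, 968, 112 and 115 CPM (-2.61 ± 0.50, adjusted p = 0.0452) and 298, 926, 77.5 and 78.1 CPM in the other cells. The call of Eif3f was lost in 5 of 11 alternatives, DESeq2 among them, with a log2 fold change between -3.16 and -1.41, and those of Yipf4 and Rala in 3 and 4 of 10. Without Csf3r-/- library 2 the log2 fold changes were -4.82 for Scand1, -3.56 for H2-Ke6, -2.51 for Yipf4, -2.64 for Rala and -2.67 for Eif3f, and none passed (adjusted p from 0.155 to 0.591). For these 5 genes the levels of both sets of cells lay side by side in each library, and the change of their difference between genotypes did not pass (adjusted p of at least 0.301). Of the 13 stimulation genes tested, Jun and Dusp1 were lower in Csf3r-/- (-1.54 ± 0.29, adjusted p = 0.0416 and -1.99 ± 0.30, adjusted p = 0.0172), in calls lost in 3 and 2 of 11 alternatives. No gene of the other pathway lists passed between genotypes, among them 8 NK receptor genes, 10 granule genes and 9 quiescence factors (edgeR). Ccr7, Gzmk, Eomes and Klrd1 had log2 fold changes of 0.29 ± 0.70, adjusted p = 0.986, 0.72 ± 0.83, adjusted p = 0.962, -0.26 ± 0.46, adjusted p = 0.983 and -0.50 ± 0.23, adjusted p = 0.641.

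**Figure D4:**
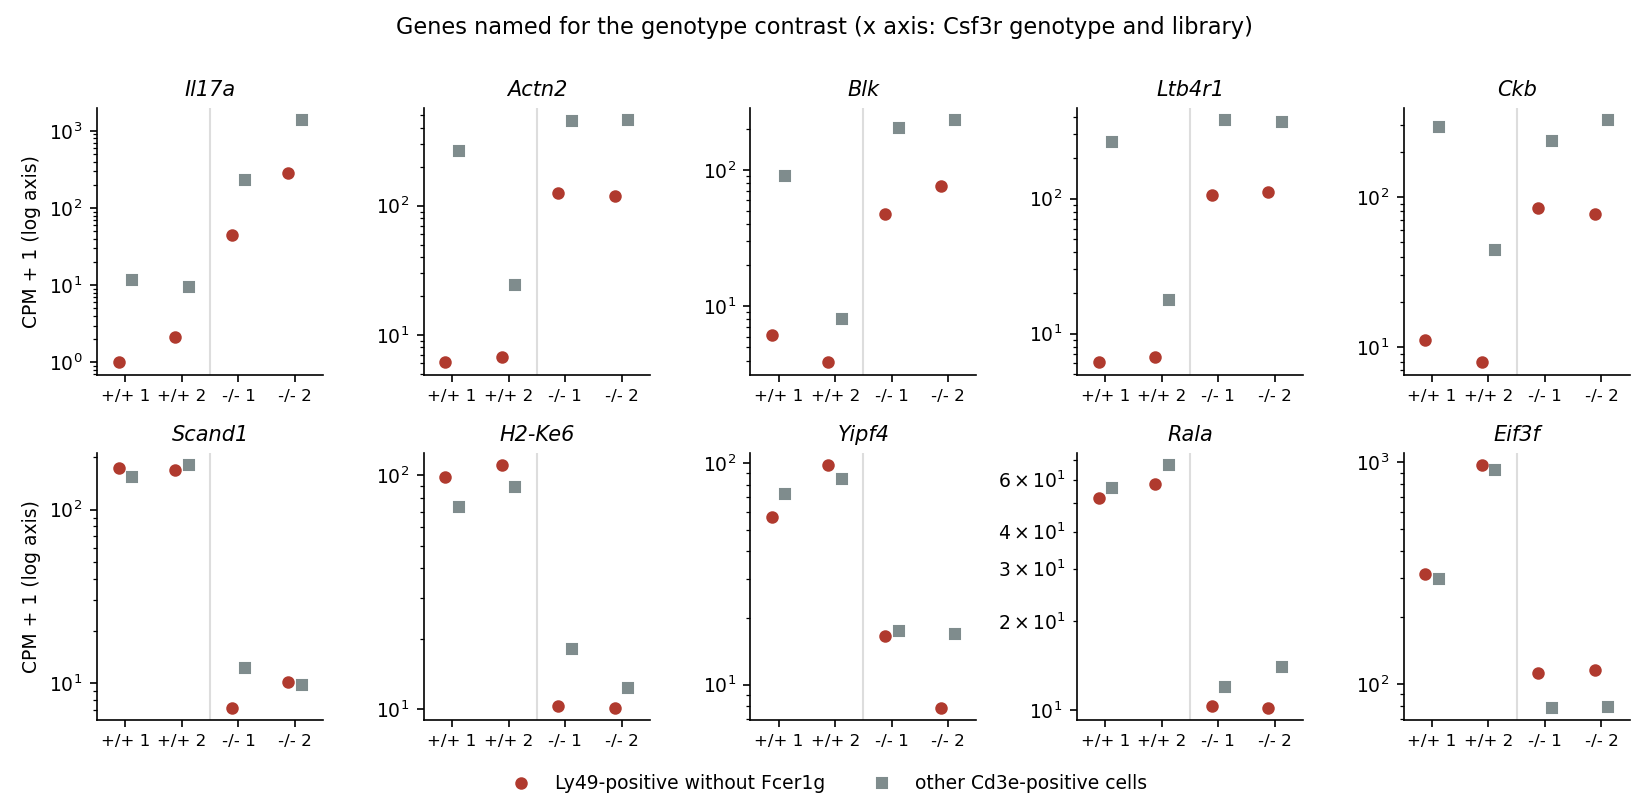
The 5 genes with the largest increase (top) and decrease (bottom) in Csf3r-/- among Fcer1g-negative Ly49+ cells, as CPM + 1 (log axis) per library in these cells (circles) and in the other Cd3e-positive cells (squares). In the bottom row both symbols lie close together in each library, and in the top row the circles of the Csf3r+/+ libraries are the lowest points of each gene.

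The difference between the Fcer1g-negative Ly49+ cells and the other cells itself changed with genotype for 133 of 10762 genes, being more positive in Csf3r-/- for 116 (1.08%) and more negative for 17 (0.158%) by edgeR, with a median of -0.01 over all genes. Of the homing, granule, NK receptor and chemokine lists, 4 of 19, 9 of 14, 7 of 14 and 4 of 14 genes were more positive, and 1 homing gene, Cxcr6, was more negative. DESeq2 called 17 genes in all, and of these lists 2, 1, 4 and 3 genes were more positive and none was more negative. Ccl5, for example, had 6051, 6349.8, 6951 and 6551 CPM in the Fcer1g-negative Ly49+ cells, close together in all libraries, and 4890.2, 7010.2, 1697 and 1532 CPM in the other cells (difference of log2 fold changes 2.08 ± 0.11, adjusted p = 1.12e-72). For Gzmk and Ccr7 the differences were 1.94 ± 0.46, adjusted p = 0.00344 and 1.67 ± 0.24, adjusted p = 2.02e-09. DESeq2 also called Ccl5 and Ccr7, and gave no adjusted p for Gzmk. Ly49+ cells made up a larger share of the Csf3r+/+ libraries, and these cells are part of the comparison. Against other cells without any UMI of Klra1, Klra6 or Klra7, 104 genes changed with genotype, 84 of them the same, and against such cells that also had no Fcer1g and little Gzmb and Ifng 52 did, 38 of them the same. Pdcd1 was among the genes that changed the other way, with -1.14 ± 0.26, adjusted p = 0.00161, but DESeq2 gave -0.24 and did not call it.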

How the data were processed

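Droplet libraries of UTCαβ were made with 10x Genomics 3′ chemistry and deposited as UMI counts per gene and barcode. According to the submitters' processing notes, the authors used bcl2fastq, Cell Ranger, R 3.4.4, Seurat 2.3.4 and the mm10 genome; the deposited counts were not normalized. Of 27998 genes, 98.7% were found by identifier in the GENCODE annotation of GRCm38. Cells were filtered as stated above. Doublets were not removed, and cells over 8000 UMIs were left out as an alternative.

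Counts were summed per library and set of cells and tested with edgeR 4.0.16 (quasi-likelihood test, TMM, filterByExpr, library as a block between sets of cells, R 4.3.3), with DESeq2 1.42.0 as an alternative. SEs were computed from the log2 fold change and the F statistic. Each library counted as 1 replicate, so that n = 2 per genotype, and cells were not treated as replicates. The script was tested on simulated data. Genes were named by a rule: the 10 largest changes in each direction against the other cells and the 5 largest in the other contrasts, among genes past an adjusted p of 0.05, of 1 direction in all libraries and of at least 20 CPM, and up to 4 genes of each list, with the genes of the rule, the Klra family and the cell type markers. Some further genes of the lists are named to complete a count, chosen after their values were seen. A few genes that the rule would name are not reported here. The lists were Ly49 genes, NK receptors, ITAM and ITIM signalling, granule genes, transcription factors of type 1, quiescent and type 3 cells, cytokine receptors, homing, checkpoints, cytokines, stimulation, proliferation, coreceptors and cell type markers. The cells, lists and tests were chosen with earlier results of these data known. Alternatives were other normalizations and filters, other limits of the rule or of the comparison cells, thinning of every cell to 1500 UMIs (10 cells of the set were shallower), and each library left out. Permutation tests and binomial intervals used scipy 1.17.1.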

Additional observations from a re-analysis of the deposited data

Results flagged for a closer look

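For 7 of the genes named for their increase over the other cells, the increase itself differed between genotypes (edgeR, interaction of genotype and set of cells, adjusted p under 0.05). The log2 fold change was larger in Csf3r-/- by 1.67 for Ccr7, 1.62 for Eomes, 1.94 for Gzmk, 1.38 for Id3, 1.51 for Itm2a, 1.49 for Nsg2 and 1.37 for Plac8. DESeq2 called only Ccr7 and Plac8 of these. Beside these values, Ly49+ cells were 30.2% and 47.7% of the Cd3e-positive cells in Csf3r+/+ and 11.7% and 9.32% in Csf3r-/- libraries, and most of them are among the other cells. The part of this composition in the differences was not tested gene by gene.

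Signal also appeared outside the cells analysed: 447 barcodes without a UMI of Cd3e met the other terms of the rule, 14 and 330 in Csf3r+/+ and 37 and 66 in Csf3r-/- libraries. With these barcodes included, the share differed between genotypes by -2.44 percentage points, against -2.53 without them.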

How the results depend on the processing

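Against the other cells, 512 genes were called. DESeq2 called 231, thinning 331, other cells under the same limits of Fcer1g, Gzmb and Ifng 879, other cells without Ly49 UMIs 807, and other cells under both terms 947, the last chosen after seeing the data. Without 1 library the count ran from 260 (without Csf3r-/- library 2) to 742 (without Csf3r+/+ library 2), with 325 without Csf3r+/+ library 1 and 303 without Csf3r-/- library 1. Against Fcer1g-positive Ly49+ cells, 114 genes became 27 with DESeq2, 40 after thinning and 53 without barcodes holding macrophage markers (chosen after seeing the data), and 37 (without Csf3r+/+ library 2) to 105 without 1 library. Between genotypes, 70 genes became 45 with DESeq2, 204 without a filter on low counts, 42 with at least 3 Ly49 UMIs and 3 after thinning. Without 1 library, which leaves 1 genotype with a single library assumed to vary like the others, the count ran from 0 (without Csf3r-/- library 2) to 234 (without Csf3r+/+ library 1). For the change of the difference with genotype, 133 genes became 17 with DESeq2 and 52 with other cells under all limits and without Ly49 UMIs (chosen after seeing the data), and 32 (without Csf3r-/- library 2) to 261 (without Csf3r+/+ library 1), with 73 without Csf3r+/+ library 2 and 52 without Csf3r-/- library 1. The cause was not tested.

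The direction turned for 7 genes against the other cells. With the same limits set on the other cells, the log2 fold change was 0.41 for C1qc, 2.26 for Ncr1, 1.0 for Gzmc, 1.66 for Tyrobp and 0.27 for C1qb, and with Ly49 UMIs also barred it was 0.47, 2.35, 0.98, 1.81 and 0.24 in the same order. With only Ly49 UMIs barred, Klrb1a was at 0.19, Ncr1 at 1.07 and Tyrobp at 0.11. After thinning, Spp1 was at 0.82, Klrb1a at 0.76, Ncr1 at 0.36 and Tyrobp at 0.39, and against Fcer1g-positive cells Lyz2 was at 0.58. Of 1416 values for 96 genes against the other cells, 1234 kept direction and call, 165 lost the call and 17 turned. Against Fcer1g-positive cells, 297 of 412 values for 43 genes kept both and 114 lost the call. Between genotypes, 123 of 156 values for 15 genes kept both and 33 lost the call. All of these sets hold genes that could pass the filter on low counts through a single group, such as Csf1r, Ncr1 and Il17a. The counts describe how calls depend on the processing and add no support for such genes.

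The difference of shares was -15.5 percentage points without the limit on Fcer1g, -5.16 without the limits on Gzmb and Ifng, -4.02 after thinning and 7.48 as a share of Ly49+ cells (chosen after seeing the data), and ran from -4.92 to -0.139 without 1 library. With the library number as a replicate block, 225 genes were called between genotypes and 80 for the interaction. Deviations from the genotype means of same-numbered libraries correlated with r = 0.239 over 4126 genes in the Fcer1g-negative Ly49+ cells and 0.327 over 10775 genes in the other cells. These 2 pairs share only a number. Limits are the 56 cells of Csf3r+/+ library 1, 2 libraries a genotype, and UMI depth, which affects whether a transcript such as Fcer1g is seen in a cell.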
